A study of Pinus armandii with 6 samples.

Results

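The histone transcripts of the Chinese white pine, Pinus armandii, were compared in seed kernels of 2 harvests. In the deposited annotation 94 of 65117 unigenes (assembled transcript sequences) carried a best database hit worded as histone H1, H2A, H2B, H3 or H4, or a gene symbol of the histone kind. Hits and symbols of histone methyltransferases, demethylases, acetyltransferases and chaperones were left out. Of the 94, 29 had a best hit in Picea, Pinus or Taxus, the conifer genera named by the rule, and 65 had another best hit or none. The annotation went against the label for 9 of them. Of these, 7 had symbols of histidine biosynthesis enzymes beginning with HIS, and the others were HTRA1, a protease symbol, and HTATSF1, a transcription elongation factor symbol. The remaining 85 unigenes are called histone unigenes here: 6 of H1, 14 of H2A, 14 of H2B, 22 of H3 and 29 of H4. Of these 85, 22 had a conifer best hit and 63 another hit or none, the hits falling in 38 genera.

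RNA was sequenced from kernels of cones harvested at the end of September, with 3 libraries, and at the end of August, with 3 libraries. The labels name no genotype or treatment for either month and call the libraries biological replicates. Tree, cone and seed pool are not stated for a library, so a p-value covers the spread among the libraries sampled, which may be partly technical.

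Histones package DNA. Core histones H2A, H2B, H3 and H4 form the nucleosome, and linker histone H1 binds the DNA between nucleosomes and compacts it. In plants most core histone genes are transcribed during DNA replication, while replacement variants are made at other times. The pine kernel consists of an embryo inside a storage tissue, the megagametophyte, and seed maturation is known to involve arrest of cell division and compaction of nuclei in other plants.

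Depth was even, with 14845783, 17379628 and 12849649 counts in the September libraries and 16131203, 13610427 and 15734657 in the August libraries. The kernel list (storage proteins, oleosins and late embryogenesis proteins) had 25 of 30 members above the filter, at a summed 4219 ± 71.4 CPM in September and 5102 ± 316 CPM in August (SD, n = 3 each). CPM values are counts scaled to the tested counts of a library with its TMM factor. August library 2 stood apart. It held 668 unigenes with 20 or more counts that had none in any other library, 340 of them with a Quercus best hit, whereas each other library held 1 to 11. Unigenes with a Quercus best hit took 0.482% of its counts and 0.0668% to 0.0767% of the counts of the others. Among histone unigenes 5 had counts in August library 2 alone. The part of this library in the results below was not tested beyond the values given without it. In a bulk sample, fewer cells of a type and less RNA per cell cannot be told apart.

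The question was how histone transcripts differed between the harvests. The most abundant linker histone unigene found by the annotation rule and 14 of 16 tested H4 unigenes were higher in September. Both tested H2AX-like unigenes were lower, and H2B and H3 were mixed. Of the 16 H4 unigenes, 8 were admitted by the low-count filter through September, and all 8 were higher. Of the other 8, 6 were higher and 2 lower. Across the whole table the change between months was broad. In edgeR's quasi-likelihood fit, at a Benjamini-Hochberg adjusted p under 0.05, 67.8% of 23216 tested unigenes were called, 35.4% as higher and 32.5% as lower in September. Of the 85 histone unigenes 46 passed the filter on low counts. Of these 46, 23 (50%) were higher, 10 (21.7%) were lower and 13 did not pass. Their median log2 fold change, September over August, was 0.80, against 0.03 over all tested unigenes. At least 2-fold differences were fitted for 18 of the higher and 4 of the lower unigenes. The September libraries all lay above the August libraries in 23 of the 46 (37.8% of all tested unigenes did so) and all below in 12 (35.0% of all).

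Many of these calls belong to unigenes that passed the filter through 1 month. At the filter level of 0.654 CPM, 14 histone unigenes reached it in all 3 libraries of September but not of August (13 higher, 1 not called), and 3 the other way (all 3 lower). Of these 17, 11 reached it in no library of the other month, so that they had to differ. The counts and median of the 46 are therefore partly set by the filter. Among the 29 that reached it in all 6 libraries, 10 (34.5%) were higher, 7 (24.1%) were lower and 12 did not pass, with a median log2 fold change of 0.23. Of the 17606 tested unigenes of the whole table that reached it in all 6 libraries, 28.3% were higher and 36.3% lower, with a median of -0.08. The 39 untested histone unigenes comprised 12 with counts in September alone, 7 with counts in August alone and 20 with counts in both months. Whole-table shares for these splits by month were not taken. Across the whole table, each September library held counts for more unigenes (43216 to 46495) than each August library (38279 to 40994).

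The counts were also taken by best hit. Among histone unigenes with a conifer best hit, 6 of 18 tested were higher, 4 lower and 8 not called (33.3% and 22.2%; of 13756 tested conifer-hit unigenes 66.9% were called, 31.7% higher and 35.2% lower). Among those with another hit, 17 of 28 were higher, 6 lower and 5 not called (60.7% and 21.4%; of 9460 such unigenes 69.2% were called, 40.7% higher and 28.5% lower). Most of these 17 reached the filter level in all 3 September libraries but not in all August libraries, and some of the 6 the other way. These shares are therefore partly set by the filter, and whole-table shares by best hit at that level were not taken. Core histone proteins are highly conserved across plants, H3 and H4 most of all. A best hit in another genus therefore does not by itself name the organism a transcript came from. With the 9 other proteins left in, 24 of 54 tested members were higher, 14 lower and 16 not called. On that wider set 7 of 25 conifer hits were higher and 8 lower.

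**Figure D1:**
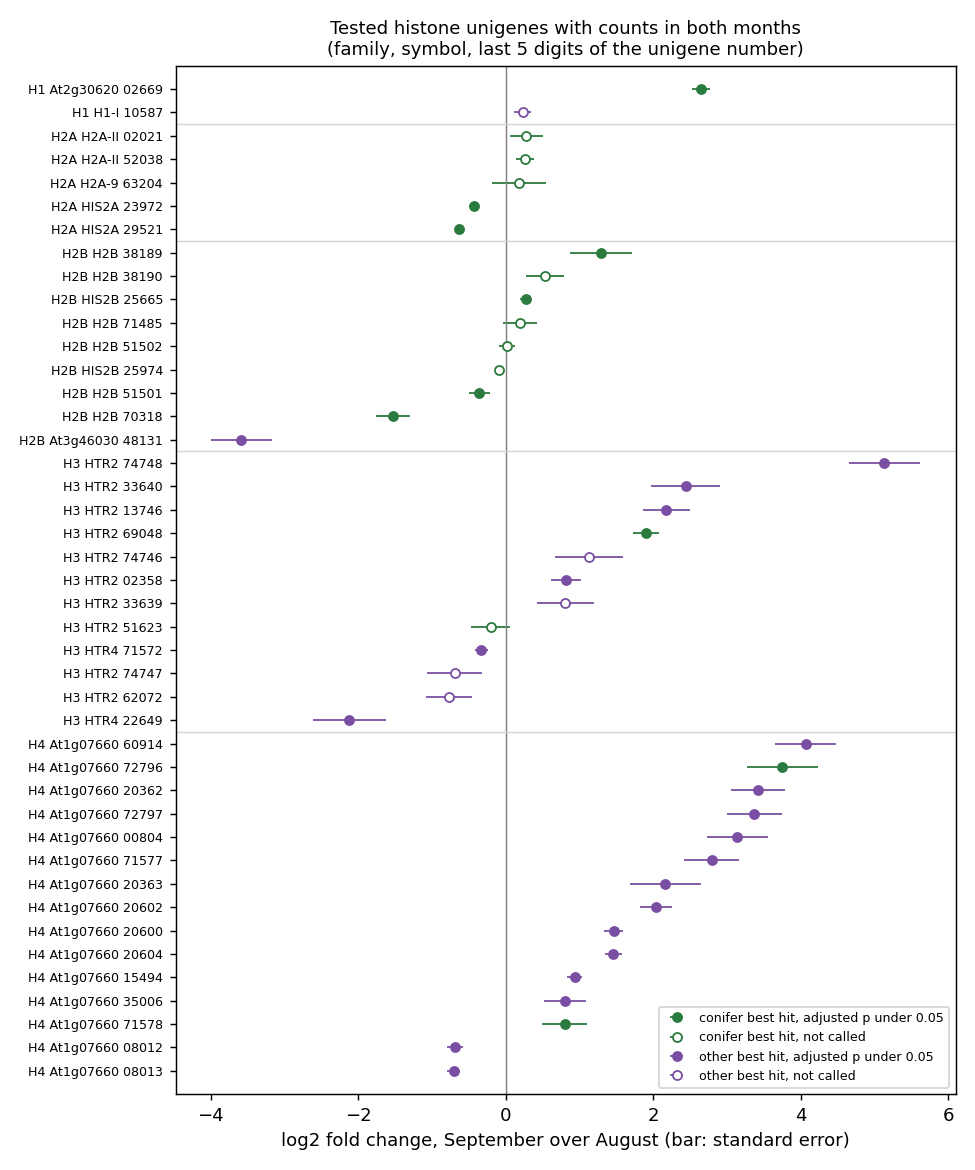
Log2 fold change (September over August) of the 43 tested histone unigenes with counts in both months, grouped by family and ordered by change; bars are standard errors, filled points had an adjusted p under 0.05, green marks a conifer best hit and purple any other. H4 lies to the right of 0 except for 2 unigenes near -0.7, and H2A lies close to 0 or below it.

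Summed over the unigenes of a family, as a description with no test, the histone families went different ways. All 85 histone unigenes together summed to 1252 ± 72.8 CPM in September and 1042 ± 35.9 CPM in August, a ratio of 1.2. In this total the libraries of the months did not overlap. The total includes the H1 unigene Unigene0002669, at 250 ± 38.6 CPM in September and 39.7 ± 5.03 CPM in August. The difference of that unigene was close to that of the total, so the ratio of 1.2 does not show a rise of the core histones. H1 summed to 280 ± 40.7 CPM in September and 66.3 ± 2.69 CPM in August (4.23 times as high in September). H4 summed to 242 ± 21.6 CPM in September and 160 ± 16.9 CPM in August, a ratio of 1.51. H2A was lower, at 235 ± 7.06 CPM in September and 325 ± 8.46 CPM in August, a ratio of 0.722. In H1, H2A and H4 no September library lay within the August range. H2B summed to 363 ± 10.5 CPM in September and 368 ± 15.1 CPM in August, with overlapping libraries. The sign of its log2 ratio turned (-0.02 here, 0.03 when scaled on conifer-hit unigenes). On the FPKM scale, which also divides by length, H2B was lower in September without overlap. It summed there to 320 ± 7.62 in September and 345 ± 13.9 in August (log2 ratio -0.11). H3 summed to 133 ± 8.08 CPM in September and 123 ± 14.1 CPM in August, and the libraries of the months overlapped. That overlap came from August library 2 alone (138 CPM). August libraries 1 and 3 (110 and 120 CPM) lay below every September library (124 to 140 CPM). Linker histone made up 22.3% ± 2.20 of the CPM of these 85 unigenes in September and 6.37% ± 0.474 in August. These shares leave out the linker histone unigenes that the rule missed, described below. Leaving out August library 2 gave ratios of 4.17 for H1, 0.715 for H2A, 1.15 for H3 and 1.61 for H4.

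**Figure D2:**
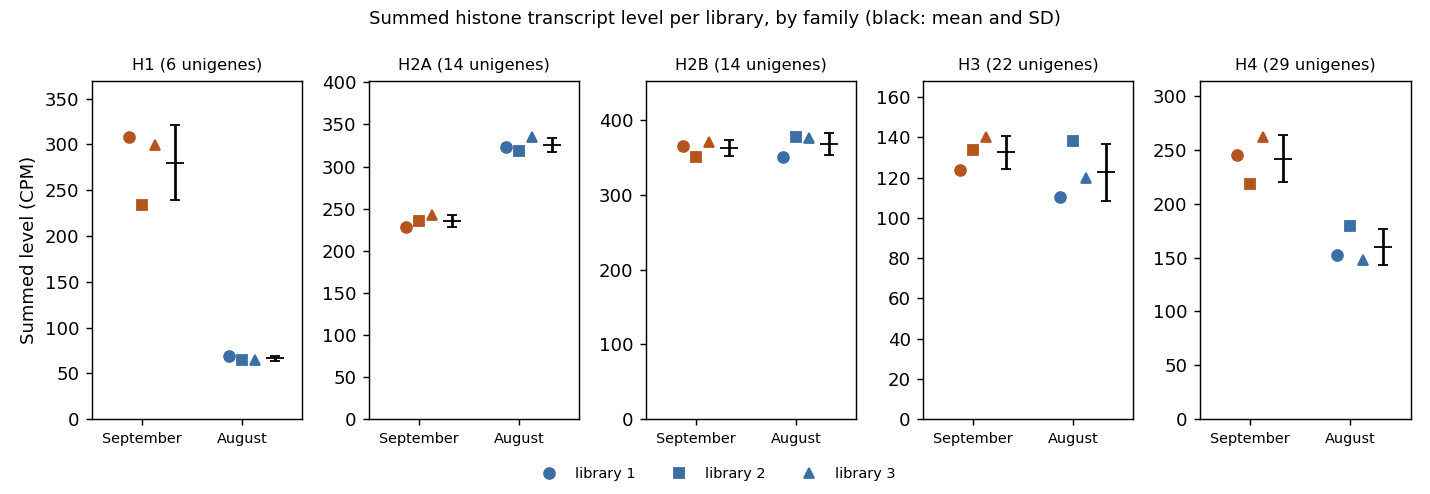
Summed level (CPM, axis from 0) of each histone family in every library, September (orange) left of August (blue), with circles, squares and triangles for libraries 1, 2 and 3 and the mean and SD in black. H1 and H4 lie higher in September and H2A lower, without overlap, while the months overlap in H2B and H3. In H3 only August library 2 lies within the September range.

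Linker histone H1 held the largest called change among histone unigenes with a mean of 5 CPM or more. Unigene0002669, whose best hit is a putative histone H1 of Pinus pinaster and whose symbol is At2g30620, a linker histone locus of Arabidopsis, had 275, 205 and 269 CPM in the September libraries, against 45.1, 39.0 and 35.1 CPM in the August libraries. The lowest September library was well above the highest August library. Its log2 fold change was 2.65 (SE 0.127, adjusted p = 1.45e-07 by edgeR). On the FPKM scale, which also divides by length, it stood at 192 in September and 30.6 in August. The other tested member, H1-I (Unigene0010587, best hit in the moss Physcomitrium), had 32.4, 27.9 and 30.5 CPM in September and 23.5, 24.7 and 29.3 CPM in August. The months overlapped and it did not pass (log2 fold change 0.23, edgeR adjusted p = 0.0867). It passed without August library 3 (0.30, adjusted p = 0.0310) and when scaled on conifer-hit unigenes (0.28, adjusted p = 0.0397). The remaining 4 H1 members were too low to test.

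The rule missed further linker histone unigenes, because their best hits read unknown and their symbol is a bare Arabidopsis locus. A search made after the data were seen, for unigenes sharing the locus symbol of a histone found by its description or with a best hit worded histone 3, added 14 unigenes, 6 of them with At2g30620. The largest of these, Unigene0003438 (Picea best hit), had 507, 395 and 486 CPM in September and 91.3, 78.1 and 64.1 CPM in August. It exceeded every histone unigene found by the rule in September, and rose with a log2 fold change of 2.57 (SE 0.132, edgeR adjusted p = 1.94e-07). Unigene0002668 averaged 97.1 ± 18.2 CPM in September and 9.45 ± 2.15 CPM in August (log2 fold change 3.35), and Unigene0041051 averaged 39.1 ± 9.40 CPM in September and 2.36 ± 0.0681 CPM in August (4.04). Both passed the test. Further tested copies did not pass. Unigene0066349 stood at 46.9 ± 4.37 CPM in September and 43.9 ± 7.07 CPM in August (log2 fold change 0.10, adjusted p = 0.484), and Unigene0023974 gave -0.19 (adjusted p = 0.441). With the added unigenes, 12 linker histone unigenes summed to 933 ± 126 CPM in September and 207 ± 16.8 CPM in August, a ratio of 4.51.

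**Figure D3:**
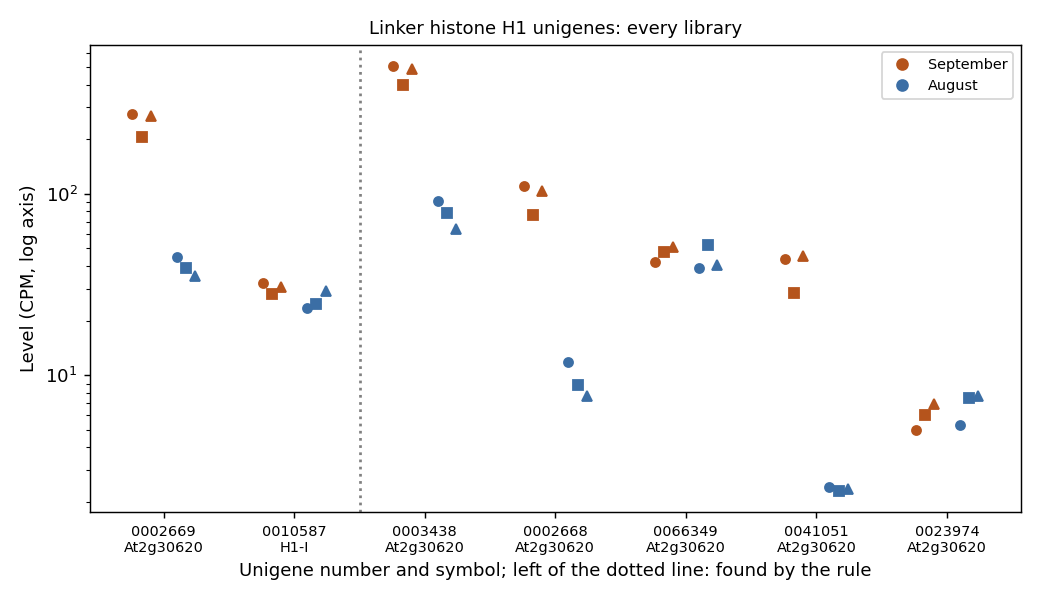
Level of each tested linker histone unigene in every library (CPM, log axis), September (orange) left of August (blue); circles, squares and triangles are libraries 1, 2 and 3, and unigenes right of the dotted line lie outside the annotation rule. The months are clearly apart in 4 of the 7 unigenes, and H1-I, Unigene0066349 and Unigene0023974 overlap.

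H2A was carried by a pair of unigenes, and both fell. Unigene0029521 and Unigene0023972 (symbol HIS2A) share 1 best hit, the histone H2AX of Picea abies; H2AX is the variant that is phosphorylated at DNA breaks. Unigene0029521 had 126, 131 and 132 CPM in September, against 205, 187 and 210 CPM in August. Unigene0023972 had 67.1, 66.4 and 67.6 CPM in September, against 86.2, 90.5 and 95.2 CPM in August. In both, every September library was below every August library. The log2 fold changes were -0.63 (SE 0.0611, edgeR adjusted p = 1.13e-05) and -0.44 (SE 0.0630, adjusted p = 0.000167), and -0.53 when their counts were summed.

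The other tested H2A unigenes did not pass. H2A-II (Unigene0052038) averaged 30.4 ± 4.31 CPM in September and 25.3 ± 2.27 CPM in August (log2 fold change 0.26, edgeR adjusted p = 0.0758), and passed without September library 1 (0.36, adjusted p = 0.0229) or when scaled on conifer-hit unigenes (0.32, adjusted p = 0.0391). A second H2A-II unigene, Unigene0002021, had 4.68 ± 0.350 CPM in September and 3.86 ± 0.719 CPM in August (adjusted p = 0.282). H2A-9 (Unigene0063204) stood at 1.13 ± 0.384 CPM in September and 0.989 ± 0.0887 CPM in August (adjusted p = 0.685). It shares its best hit with 3 unigenes outside the rule, and all 4 summed gave 0.03 on the log2 scale (adjusted p = 0.740). The 7 H2A unigenes with another hit were all untested. They included H2AZ1 (Unigene0074765), named after the variant H2A.Z found at gene starts and regulatory regions, with 17 counts in September and 13 in August. Of the 7, 2 had counts in August library 2 alone, namely hh2a (Unigene0065126, 50 counts, Quercus best hit) and hH2Az (Unigene0044271, 26 counts, Pyrus best hit). Their family split depended on that library, since the 7 summed to 0.387 of the August level, and to 1.24 times it without August library 2.

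H2B, the partner of H2A, held the most abundant histone unigene of August by both scales, and it did not pass. HIS2B (Unigene0025974, Pinus best hit) had 209, 202 and 209 CPM in September, against 214, 221 and 226 CPM in August. The September values were all lower, by little (log2 fold change -0.09, SE 0.0521, edgeR adjusted p = 0.141). On the FPKM scale it stood at 230 in September and 246 in August. The second HIS2B unigene, Unigene0025665, had 108, 102 and 109 CPM in September, against 80.2, 93.3 and 90.3 CPM in August, and rose without overlap (log2 fold change 0.27, SE 0.0714, adjusted p = 0.00655).

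Low H2B unigenes moved both ways. Unigene0070318 had 2.32, 1.84 and 3.15 CPM in September and 7.05, 7.19 and 6.67 CPM in August, and fell by 1.53 on the log2 scale (SE 0.235, edgeR adjusted p = 0.000250). Unigene0051501 averaged 9.92 ± 0.272 CPM in September and 12.7 ± 1.76 CPM in August (log2 fold change -0.36, adjusted p = 0.0486), a call lost without any single library other than August library 1 (adjusted p = 0.0791 to 0.115), with no filter (0.0843), by DESeq2 (0.0991), with its size factors (0.0508) and when scaled on conifer-hit unigenes (0.0867). Unigene0051502 (0.02, adjusted p = 0.863) and Unigene0038190 (0.54, adjusted p = 0.0868) did not pass. These 4 and Unigene0025665 share 1 best hit, so their reads may have been split among them. Summing their counts gave a log2 fold change of 0.16 (SE 0.0602, adjusted p = 0.0335), opposite to the falls of Unigene0070318 and Unigene0051501 alone. Most of the summed counts were those of Unigene0025665 (4735 in September and 3966 in August). Unigene0070318 had 106 and 315 counts in these months, and Unigene0051501 had 443 and 572.

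Unigene0038189 had 1.63, 0.980 and 1.81 CPM in September and 0.624, 0.371 and 0.762 CPM in August (log2 fold change 1.29, edgeR adjusted p = 0.0191). It reached the filter level in all 3 September libraries and in 1 August library, and so was admitted through September. Its call was lost without August library 1 (adjusted p = 0.0524) or 2 (0.0770) and without September library 1 (0.0641) or 3 (0.0785), with no filter (0.0808) and by DESeq2 (0.0543). Summed with the 2 unigenes outside the rule that share its best hit, the value was -0.39 (adjusted p = 0.00410). Unigene0071485 did not pass (0.19, adjusted p = 0.483). The 1 tested H2B unigene with another hit, Unigene0048131 (At3g46030, best hit a histone H2B of Hibiscus), had 0.136, 0.403 and 0.552 CPM in September, against 3.99, 3.78 and 5.40 CPM in August, and fell by 3.58 on the log2 scale (SE 0.412, adjusted p = 3.59e-05). It reached the filter level in all 3 August libraries and in no September library. It was thus admitted through August and had to differ. Of the 5 H2B unigenes outside the rule, Unigene0002221 (-0.49) and Unigene0014880 (-0.93) fell and 3 did not pass. HTB1 (Unigene0059634, Quercus best hit) had 106 counts, all in August library 2, whereas htb1 (Unigene0025553, also a Quercus best hit) had 23 counts in September and none in August.

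H3 carries most of the known regulatory histone marks on its tail. Of 14 tested H3 unigenes 6 were higher, 3 lower and 5 not called (42.9% and 21.4%, beside 35.4% and 32.5% of all tested unigenes). Of the 7 that reached the filter level in all 6 libraries 2 were higher, 1 lower and 4 not called, with a median log2 fold change of -0.20. Among all unigenes at that level 28.3% were higher and 36.3% lower. The symbol HTR2 was given to 15 of the 22 H3 unigenes. In Arabidopsis HTR2 encodes a replicative H3 and HTR4 the replacement form that is deposited outside replication. The symbols mark resemblance only.

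The most abundant H3 unigene fell. HTR4 (Unigene0071572, Salix best hit) had 70.6, 74.3 and 78.1 CPM in September, against 83.1, 106 and 91.0 CPM in August, without overlap (log2 fold change -0.33, SE 0.0910, edgeR adjusted p = 0.00881). The next, HTR2 (Unigene0069048, Taxus best hit), had 18.0, 21.9 and 14.2 CPM in September, against 4.804, 4.74 and 4.95 CPM in August (log2 fold change 1.90, SE 0.178, adjusted p = 8.94e-06). Its identity is uncertain: it is 3162 nt long, its annotated components include the plasma membrane, and it shares its best hit with a unigene whose symbol is MLO2, a membrane protein. Summing the pair gave 0.43 (adjusted p = 0.0305). A longer unigene, HTR2 (Unigene0002358, Vitis best hit), averaged 11.3 ± 2.00 CPM in September and 6.42 ± 1.47 CPM in August and rose (0.82, adjusted p = 0.00523). The other conifer-hit H3, Unigene0051623, did not pass (-0.20, adjusted p = 0.520).

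Among the low H3 unigenes, chosen for naming after their values were seen, several that were near 0 CPM in August were called higher. Of the tested H3 unigenes, 5 reached the filter level in all 3 libraries of September but not of August (4 higher, 1 not called). Another 2 did so the other way, and 2 were lower. These are the unigenes named here, each admitted through the month in which it was high, so their calls are partly set by the filter. Unigene0074748 had 4.70, 3.63 and 6.54 CPM in September and 0.250, 0.0741 and 0.0635 CPM in August (log2 fold change 5.14, SE 0.484), and 5.98 without August library 1. Unigene0013746, whose best hit is worded as the centromeric H3-like protein CSE4 of Cucumis sativus, had 3.13, 2.88 and 3.15 CPM in September and 0.499, 0.890 and 0.635 CPM in August. Centromeric H3 replaces H3 where the kinetochore forms. It rose with a log2 fold change of 2.18 (SE 0.322, edgeR adjusted p = 0.000192). Unigene0074746, with the same best hit, averaged 1.65 ± 0.631 CPM in September and 0.734 ± 0.350 CPM in August and did not pass (1.12, adjusted p = 0.0518). It passed without August library 1 (1.54, adjusted p = 0.0301), without September library 2 (1.43, adjusted p = 0.0217) and when scaled on conifer-hit unigenes (1.18, adjusted p = 0.0433). Both summed gave 1.76 (adjusted p = 0.000203). Unigene0033640 also rose (2.44, adjusted p = 0.00106). The unigene hht1 (Unigene0047484, best hit histone 3 of the liverwort Marchantia) had 69 counts in September and none in August, at least 23.3-fold higher against a floor of 3 counts over the month. In the other direction, HTR4 (Unigene0022649) fell by 2.12 on the log2 scale, and Unigene0065034, with a best hit in the green alga Scenedesmus, had no counts in September and 53 in August, at least 17.5-fold lower against the same floor.

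H4 is the most conserved core histone. All 16 tested H4 unigenes passed, 14 higher and 2 lower (87.5% and 12.5%, beside the 35.4% and 32.5% of all tested unigenes), with a median log2 fold change of 2.10. Among the 8 that reached the filter level in all 6 libraries 6 were higher and 2 lower, with a median of 0.87, where 28.3% of all unigenes at that level were higher and 36.3% lower. The other 8 reached it in all 3 September libraries but not in all August libraries, and all 8 were higher, so the count and median over the 16 are partly set by the filter. The symbol At1g07660, an Arabidopsis H4 locus, was carried by 21 of the 29.

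The lower pair were the most abundant H4 unigenes of August. Unigene0008013 (Cynara best hit, worded as a histone core) had 32.96, 38.8 and 35.4 CPM in September, against 60.5, 60.4 and 53.8 CPM in August (log2 fold change -0.70, SE 0.0870, edgeR adjusted p = 5.87e-05). Unigene0008012 (Populus best hit) had 18.7, 18.7 and 20.8 CPM in September, against 29.5, 34.4 and 29.6 CPM in August (-0.69, SE 0.103, adjusted p = 0.000213). In both, every September library lay below every August library.

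The next H4 unigenes in abundance rose. Unigene0020604 (Cucumis best hit) had 59.7, 52.1 and 60.3 CPM in September, against 17.6, 24.5 and 20.5 CPM in August (log2 fold change 1.46, SE 0.121, edgeR adjusted p = 3.93e-06). It was the highest H4 unigene of September. Unigene0015494 (Ipomoea best hit) had 47.7, 39.8 and 49.8 CPM in September and 23.1, 25.2 and 23.4 CPM in August (0.94, SE 0.102, adjusted p = 2.44e-05). Unigene0020600 (Capsicum best hit) had 30.4, 27.9 and 31.8 CPM in September and 10.4, 12.8 and 9.65 CPM in August (1.46, SE 0.127, adjusted p = 5.38e-06). No September library of these 3 lay within the August range. Unigene0020602 had 12.8, 8.12 and 12.3 CPM in September and 2.62, 2.97 and 2.48 CPM in August (2.04, SE 0.222, adjusted p = 2.46e-05).

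Set apart after their values were seen, and so given with no test, the lower pair summed to 55.1 ± 3.07 CPM in September and 89.4 ± 5.73 CPM in August, while the other 27 H4 unigenes summed to 187 ± 22.8 CPM in September and 70.3 ± 12.1 CPM in August. The pair held 22.9% ± 2.89 of H4 CPM in September and 56.2% ± 3.10 in August. The ratio of the other 27 was 2.66, and 2.95 without August library 2.

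Most of the remaining H4 unigenes were near the detection limit in August. Of those that passed, 7 averaged between 0.137 and 0.657 CPM in August and rose with log2 fold changes between 2.17 and 4.07. The largest was Unigene0060914 (Mikania best hit), with 7.22, 3.69 and 8.51 CPM in September against 0.312, 0.371 and 0.445 CPM in August. Unigene0072796, with a Picea best hit, averaged 1.91 ± 0.330 CPM in September and 0.137 ± 0.0805 CPM in August (3.75, SE 0.481, edgeR adjusted p = 7.56e-05). Unigene0020603 had 149 counts in September and none in August, at least 50.3-fold higher against the floor of 3 counts over the month.

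The calls of the 2 smallest H4 rises were lost on leaving out any of 4 libraries. Unigene0071578, the second with a Picea best hit, had 3.34, 6.74 and 5.60 CPM in September and 3.81, 2.37 and 2.79 CPM in August, which overlap (log2 fold change 0.80, SE 0.302, edgeR adjusted p = 0.0373). Its call was lost without August library 2 or 3 or September library 2 or 3 (log2 fold changes 0.57 to 0.76, adjusted p = 0.0906 to 0.158) and with no filter (0.0708). Unigene0035006 (0.81, adjusted p = 0.0304) lost its call without August library 1 or 3 or September library 1 or 3 (0.65 to 0.75, adjusted p = 0.0807 to 0.101), with no filter (0.117) and by DESeq2 (0.0567). Of the H4 unigenes, 5 share 1 Ipomoea best hit, among them Unigene0015494 and Unigene0020603, and summing these 5 gave 1.11 on the log2 scale (adjusted p = 9.17e-06). H4.1 (Unigene0013325 with 100 counts and Unigene0013323 with 29 counts) had counts in August library 2 alone.

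**Figure D4:**
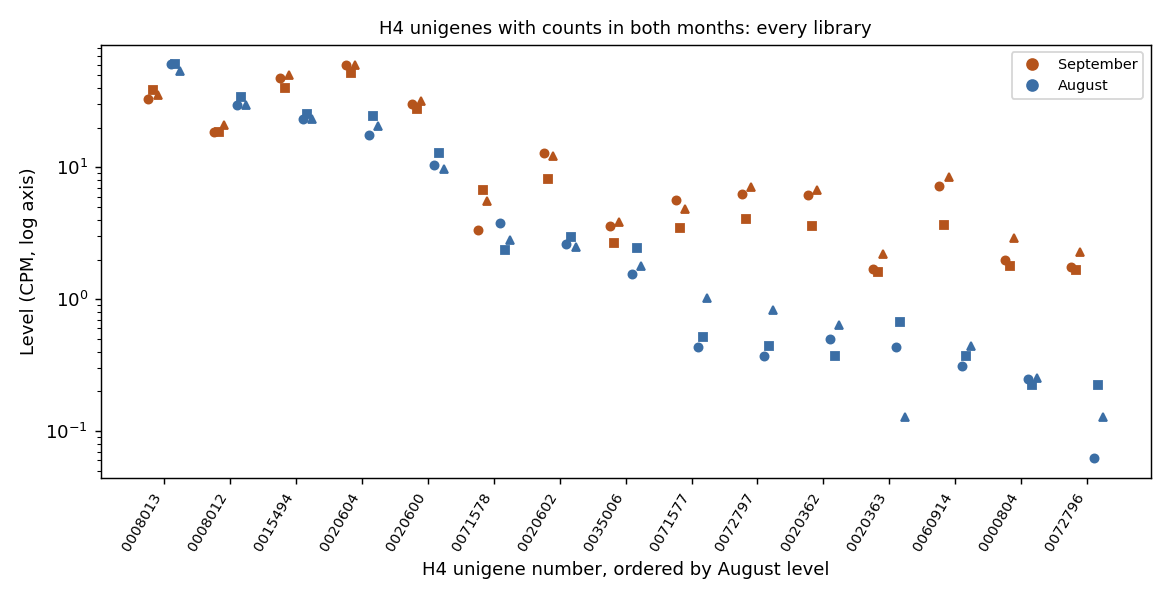
Level of the 15 tested H4 unigenes with counts in both months in every library (CPM, log axis), ordered by August level, September (orange) left of August (blue); circles, squares and triangles are libraries 1, 2 and 3. The 2 leftmost unigenes are lower in September and the others higher, with overlap in Unigene0071578 alone.

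The members shared little annotation beyond their names. A nucleosome or chromatin term was given to 27 of the 85 histone unigenes. The FANCM-MHF complex, whose MHF subunits have the histone fold, was given to 39. The TFIID complex, which also holds histone-fold subunits, was given to 7, and 26 had no component term. Their lengths ran from 206 to 3996 nt with a median of 671 nt, and 7 were over 2000 nt, which is longer than a histone coding region needs. The best hit of 53 read unknown, hypothetical, uncharacterized or the like.

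Of the 9 other proteins 8 were tested, with 1 higher, 4 lower and 3 not called, where 35.4% of all tested unigenes were higher and 32.5% lower. HISN2 (Unigene0042419), a histidine biosynthesis enzyme, had the highest mean CPM over the 6 libraries of any unigene the rule found, at 200 ± 12 CPM in September and 319 ± 14.4 CPM in August, and fell (log2 fold change -0.67, SE 0.0631, edgeR adjusted p = 9.08e-06). HIS3 (Unigene0073521), HTATSF1 (Unigene0030299) and HISN4 (Unigene0056355) also fell, with log2 fold changes of -0.78, -0.58 and -0.26. The call of HISN4 was lost without August library 3 and without September library 1 or 2 (adjusted p = 0.0606 to 0.0805) and when scaled on conifer-hit unigenes (adjusted p = 0.0648). One HISN1A unigene (Unigene0045854) rose (3.44, adjusted p = 0.000138). It reached the filter level in all 3 September libraries and in no August library, and so had to differ. HISN3 (Unigene0003015), HISN7 (Unigene0013559) and the other HISN1A unigene (Unigene0053230) did not pass, at log2 fold changes of -0.13, 0.37 and 0.31. Scaled on conifer-hit unigenes, Unigene0053230 passed (0.37, adjusted p = 0.0378). HTRA1 was too low to test. The direction of the conifer-hit total turned with these other proteins. With them it was 1249 ± 37.9 CPM in September and 1296 ± 13.1 CPM in August. Without them it was 874 ± 43.5 CPM in September and 736 ± 15.3 CPM in August. Both totals include the H1 unigene Unigene0002669, at 250 ± 38.6 CPM in September and 39.7 ± 5.03 CPM in August. Its own difference was larger than that of the total without the other proteins.

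The proteins that handle histones were taken from 4 lists of symbols and descriptions. Their counts stand beside the 35.4% of all tested unigenes that were higher and the 32.5% that were lower. Of 18 tested histone chaperones and assembly factors 2 were higher and 11 lower (11.1% and 61.1%, median log2 fold change -0.35). NAP1;1 (Unigene0022916), which carries H2A and H2B, averaged 538 ± 37.8 CPM in September and 735 ± 26.7 CPM in August and fell (-0.45, SE 0.0637, edgeR adjusted p = 0.000147). MSI1 (Unigene0031553), a subunit of chromatin assembly factor 1 and of Polycomb complexes in Arabidopsis, had 26.5, 28.6 and 31.5 CPM in September against 3.31, 3.71 and 2.86 CPM in August and rose (3.13, SE 0.144, adjusted p = 1.14e-07). Of 36 chromatin remodellers 3 were higher and 20 lower (8.33% and 55.6%, median -0.26). SYD (Unigene0011127), a SWI/SNF ATPase, did not pass (-0.14, adjusted p = 0.0750), but was lower without August library 2 (-0.19, adjusted p = 0.0382) or September library 3 (-0.19, adjusted p = 0.0384) and with no filter (-0.18, adjusted p = 0.0484). Unigene0011240, which has no symbol, fell by 1.80 on the log2 scale. With size factors from conifer-hit unigenes 5 remodellers were higher.

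Enzymes that modify histones were called in both directions. Of 45 tested methyltransferases and demethylases 13 were higher and 21 lower (28.9% and 46.7%, beside 35.4% and 32.5% of all, median log2 fold change -0.21). SUVH1 (Unigene0008991), of the family that methylates H3, averaged 343 ± 9.03 CPM in September and 380 ± 12.4 CPM in August and was called lower (-0.15, edgeR adjusted p = 0.0309), a call lost without September library 2 (-0.13, adjusted p = 0.103) or 3 (-0.14, adjusted p = 0.101) and when scaled on conifer-hit unigenes (-0.093, adjusted p = 0.142). SUVR5 (Unigene0036072) averaged 19.4 ± 1.59 CPM in September and 4.30 ± 1.10 CPM in August and rose (2.16, adjusted p = 4.5e-06). Of 21 acetyltransferases and deacetylases 8 were higher and 9 lower (38.1% and 42.9%, median -0.16), and 5 were higher without August library 1 or without September library 1. The acetyltransferase HAC1 (Unigene0030564) and the deacetylase HDA14 (Unigene0073864) fell, with log2 fold changes of -0.21 and -1.45. The call of HAC1 was lost without September library 1 (adjusted p = 0.0539) or 3 (0.0664) and when scaled on conifer-hit unigenes (0.0607).

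Replication, during which most core histones are made, and mitosis were followed with 2 more lists. Of 39 tested replication unigenes 16 were higher and 13 lower (41.0% and 33.3%, near the 35.4% and 32.5% of all tested unigenes, median log2 fold change 0.01). Calls of at least 2-fold numbered 15 higher and 3 lower, beside 5633 higher and 2886 lower among all 23216 tested unigenes. TSO2 (Unigene0033523), a ribonucleotide reductase subunit that supplies DNA precursors, averaged 149 ± 5.98 CPM in September and 195 ± 1.68 CPM in August and fell (-0.38, edgeR adjusted p = 0.000150). CDC6 (Unigene0001956), which loads the helicase at origins, averaged 53.6 ± 0.787 CPM in September and 16.5 ± 3.49 CPM in August and rose (1.70, adjusted p = 2.39e-06). Of 20 mitotic cyclins and B-type kinases 10 were higher and 4 lower (50% and 20%, beside the same 35.4% and 32.5%, median 0.75). The B-type cyclin CYCB2-1 (Unigene0001631) had 110, 104 and 128 CPM in September against 1.497, 0.815 and 1.52 CPM in August (6.44, SE 0.163, adjusted p = 7.07e-09). In the kernel list 12 of 25 were higher and 7 lower (median 0.50), beside those same shares of all tested unigenes. Its most abundant member, an oleosin (Unigene0045277), averaged 768 ± 47.5 CPM in September and 2096 ± 95.0 CPM in August and fell, and the embryo-abundant protein EAP (Unigene0032100) rose (5.36).

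**Figure D5:**
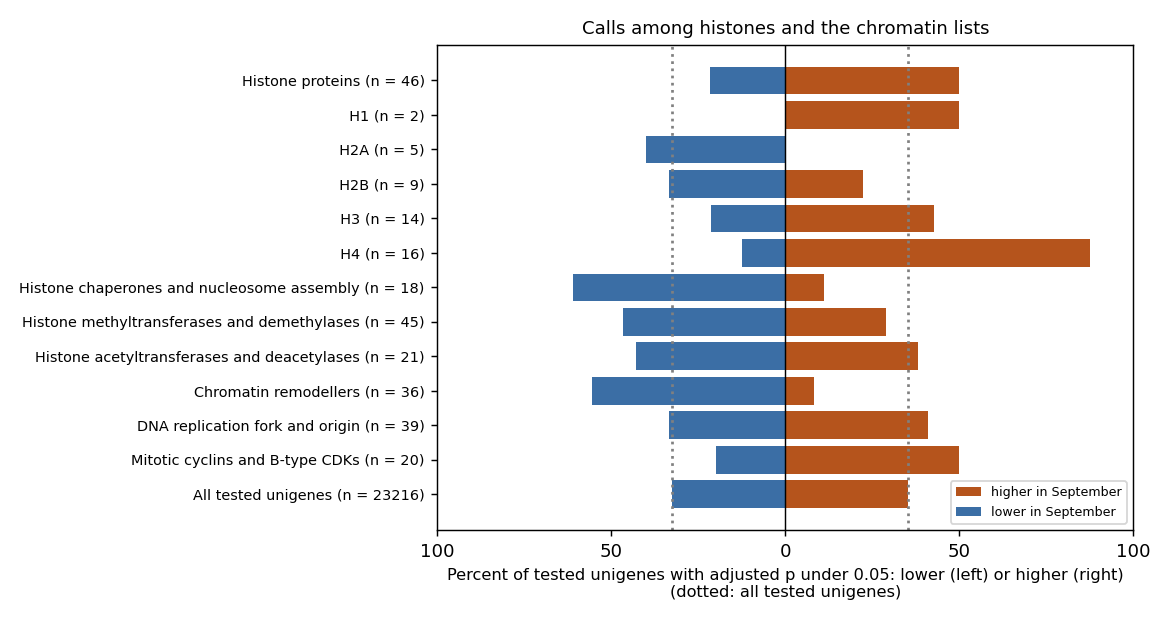
Percent of tested unigenes called lower (blue, left) or higher (orange, right) in September by edgeR at an adjusted p under 0.05, for all histone unigenes, each family and the lists of chaperones, modifying enzymes, remodellers, replication and mitosis, with all 23216 tested unigenes in the last row and as dotted lines. H4 reaches 87.5% higher, with 8 of its 16 tested unigenes admitted by the filter through September, while chaperones and remodellers reach 61.1% and 55.6% lower.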

How the data were processed

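The submitters' processing notes name fastp for trimming and RSEM for quantification, without versions. Assembler, annotation programs, genome build and strandedness: not given in the sources used here. Per the file headers, the authors deposited estimated counts, which are not normalized, and FPKM values. Of the 390702 estimated counts, 8 were not whole numbers before rounding.

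Rounded counts of all 6 libraries were fitted with edgeR 4.0.16 (R 4.3.3), using filterByExpr by month (minimum count 10, minimum total 15), TMM and the quasi-likelihood F test, with Benjamini-Hochberg adjustment over 23216 unigenes at 0.05. Standard errors come from the F statistic. DESeq2 1.42.0 served as an alternative test and scaling. Floors of 3 counts over a month, 0.0671 CPM in September and 0.0663 CPM in August, cover counting error only.

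Named unigenes were the tested conifer hits, the most abundant member of each split and family, the 5 largest passing rises and falls of each split with a mean of 5 CPM or more, and from each list the most abundant and the most changed passing member with a mean of 5 CPM or more. Others were chosen after their values were seen. The members and lists were chosen with earlier results of these data known. Names are those of the best hit or symbol and mark resemblance. Near-identical copies can share reads, and so can overlapping antisense transcripts, since no strand is stated. Sequences of the unigenes were not used here.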

Additional observations from a re-analysis of the deposited data

How the results depend on the processing

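Most values kept their direction and their side of the threshold under other scalings, the DESeq2 test, no filter, summing of unigenes with the same best hit and leaving out each library. The conifer-hit unigenes lower numbered 8, and 4 with the other proteins taken out. The other-hit unigenes lower numbered 6, and 12 with no filter, which tests more unigenes of few counts. The summed conifer-hit level had a log2 ratio of -0.05, 0.25 with the other proteins taken out and 0.10 without HISN2, its most abundant member. Leaving out 1 library gave 21 to 25 higher and 12 to 14 lower among all members, 5 to 7 and 6 to 8 among conifer hits, and 16 to 19 and 6 in each case among other hits. Signs turned for Unigene0038189 (-0.39), Unigene0051501 (0.16) and Unigene0070318 (0.16) when all unigenes of the same best hit were summed, whatever its wording, an alternative chosen after the data were seen. They also turned for Unigene0051502, which was not called, with no filter (-0.019), and leaving out 1 library gave it -0.085 to 0.065, and for H2A-9 (Unigene0063204), also not called, which ranged from -0.13 to 0.35 on leaving out 1 library. Most counts in the sum that holds Unigene0051501 and Unigene0070318 were those of Unigene0025665, whose own log2 fold change was 0.27. What turned the other signs was not tested. Counts in the lists moved by over 1.5 times for chaperones higher (4 with no filter, 2 in the report) and for acetyltransferases and deacetylases higher (5 with no filter, 8 in the report).

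The labels do not say whether the replicate numbers pair the libraries, and a check on the values could not settle it. Deviations from the month means of same-numbered libraries correlated at 0.0924, 0.0430 and 0.0300 across unigenes, each weak and under 0.1. Yet every library but August library 3 correlated best with its own number. With the replicate number as a block, 23 members were higher and 13 lower, against 24 and 14 without it, conifer hits had 6 and 7, other hits 17 and 6, the lists 51 and 78, and all unigenes 8027 and 7401. Under the block Unigene0035006 (adjusted p = 0.0530), Unigene0071578 (0.0654) and Unigene0051501 (0.0733) were not called and Unigene0074746 was (0.0395).

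Depth limits the low unigenes. The 39 untested histone unigenes, and copies that split reads, cannot be ranked by their changes, and the annotation search cannot show how many histone unigenes it missed.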
